A study of Mus musculus with 10 samples.

Results

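Transcripts of most genes of the VEGF family and its receptors were lower in the squamous tumours than in lung. The family was taken as 10 genes, the ligands Vegfa, Vegfb, Vegfc, Figf (now named Vegfd) and Pgf, the receptors Flt1, Kdr and Flt4, and the co-receptors Nrp1 and Nrp2. They were found among the 19096 genes that had a named probe, by matching the accession of each probe on the array to the listed symbols. All 10 had at least 1 probe and 16 probes in all, and each gene is described by its brightest probe, judged by the mean of the 10 arrays. Each of these 10 probes stood well above background on every array, so none entered through 1 group alone. Of the 10 genes, 8 fell in the tumours, 1 (Pgf) was higher by less than 2-fold and 1 (Nrp2) did not pass the test. Over all 15586 tested genes, 13.4% were lower and 11.6% higher by the same rule, which is given below.

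The study compared wild-type lung with the lung squamous cell carcinomas (SCC) of mice that lack Lkb1 in the airway. RNA had been hybridised to single-colour Agilent microarrays, 1 array per sample, with 5 WT and 5 SCC arrays. The WT samples were whole lung of mice carrying floxed Lkb1 alleles without Cre, given in the labels as wild type (Lkb1f/f). The SCC samples were whole lung tumour of CCSPiCreLkb1f/f mice, in which the promoter of CCSP, a secretory protein of club cells, drives Cre in airway epithelium. All mice were labelled as B6.129 and 13 months old, and both groups carried the floxed alleles. The labels do not say whether each array was a separate animal, so p-values measure the spread between these samples. Neither group is purified cells. In whole tissue, fewer cells of a type and less RNA per cell cannot be told apart, and this holds for each difference below. Levels are log2 of quantile-normalized signal. Levels of different genes are not comparable, because probes differ in brightness, so where a pair of genes is subtracted on each array only the shift of that value between groups is described.

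VEGF ligands are secreted proteins that drive the growth, survival and permeability of blood and lymphatic vessels. VEGFA binds the receptor tyrosine kinases FLT1 (VEGFR1), which binds it tightly and signals weakly, and KDR (VEGFR2), which carries most of the signal in endothelial cells. VEGFB and PGF bind FLT1, while VEGFC and FIGF bind FLT4 (VEGFR3), the receptor of lymphatic endothelium. Neuropilins bind VEGFs and class 3 semaphorins and act beside these receptors. In healthy lung, alveolar epithelium makes VEGFA next to a dense capillary bed.

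Promoter sequence is shown for the blood endothelial receptors and for the co-receptors, since Nrp1 fell and Nrp2 did not pass the test. The 250 bases before the RefSeq start of each gene are given 5′ to 3′ along the gene (RefSeq, assembly GRCm38.p6), at chr5:75978456-75978705 on the minus strand for Kdr, chr5:147726012-147726261 on the minus strand for Flt1, chr8:128358823-128359072 on the plus strand for Nrp1 and chr1:62703067-62703316 on the plus strand for Nrp2. Capitals mark the core of the hypoxia response element (ACGTG or GCGTG) and an ETS core (CCGGAA), on either strand. All 10 members had a promoter entry, 12 in all since Vegfa and Pgf had 2 starts.
Kdr: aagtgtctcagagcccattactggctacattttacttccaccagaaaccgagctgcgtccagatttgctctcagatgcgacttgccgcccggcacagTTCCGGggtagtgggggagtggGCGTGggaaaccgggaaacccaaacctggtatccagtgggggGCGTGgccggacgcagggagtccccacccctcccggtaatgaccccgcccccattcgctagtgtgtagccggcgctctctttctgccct
Flt1: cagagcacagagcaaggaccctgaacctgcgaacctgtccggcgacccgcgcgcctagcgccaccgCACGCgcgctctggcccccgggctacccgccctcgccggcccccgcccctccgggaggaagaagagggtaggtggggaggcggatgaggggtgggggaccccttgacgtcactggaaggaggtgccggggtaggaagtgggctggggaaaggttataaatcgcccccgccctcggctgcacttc
Nrp1: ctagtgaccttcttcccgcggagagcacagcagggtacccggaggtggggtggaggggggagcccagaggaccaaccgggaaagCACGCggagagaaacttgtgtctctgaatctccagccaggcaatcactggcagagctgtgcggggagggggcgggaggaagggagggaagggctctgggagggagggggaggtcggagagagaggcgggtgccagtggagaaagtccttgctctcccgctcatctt
Nrp2: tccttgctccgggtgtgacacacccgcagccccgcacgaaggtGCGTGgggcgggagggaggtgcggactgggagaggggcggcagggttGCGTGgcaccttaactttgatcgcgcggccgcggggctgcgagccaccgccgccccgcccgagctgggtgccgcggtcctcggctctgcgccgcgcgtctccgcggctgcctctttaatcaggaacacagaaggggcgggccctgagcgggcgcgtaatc
The hypoxia core was found in 7 of the 12 entries and in 38.6% of the 32851 promoter windows of the same length. For Vegfa the window before the downstream start held 2 matches and that before the upstream start held 0. For Pgf the window before the downstream start held 0 and that before the upstream start held 1. Kdr held 2 matches, Flt1 1, Nrp1 1 and Nrp2 2. The ETS core was found in 1 of the 12 entries, that of Kdr, and in 12% of all windows. These are matches of letters, not binding sites.

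The arrays were not alike. SCC replicate 5 had 90.2% of its probes well above background, against 71.0% to 74.5% on the other 9 arrays. On SCC replicate 2 the mean log2 level of 10 squamous keratinocyte markers was 9.43, while the remaining SCC arrays lay between 13.50 and 13.89 and the WT arrays between 3.89 and 4.48. All 10 squamous markers were called higher in SCC, and 5 of them were not well above background on any WT array. The deletion was not checked, since none of the named probes was for Lkb1 (Stk11). Key counts are given with and without these 2 arrays. Of the 3 slides, the first held only WT arrays (replicates 1 to 4) and the third only SCC arrays (replicates 4 and 5). Slide 2 held WT replicate 5 with SCC replicates 1 to 3, so only there can slide and group be told apart.

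A gene was called where limma gave an adjusted p below 0.05, over all 30374 tested probes, and at least a 2-fold difference. By that rule 13.4% of all 15586 tested genes were lower in SCC and 11.6% were higher, and 8 of the 10 members were lower and 0 higher. By the adjusted p alone 9 members passed, and so did 53.9% of all tested genes. The median difference of the members was -1.61 on the log2 scale, and over all tested genes it was -0.04. The groups did not overlap for 9 of the 10 members, and the same held for 41.2% of all tested genes. Without SCC replicates 2 and 5 the same count of 8 was called lower and 0 higher, against 14.5% of all tested genes lower. In the fit with slide as a block, whose difference comes from slide 2, 5 members were called lower, against 6.43% of all tested genes. The differences there, of 1 WT and 3 SCC arrays, were -1.80 for Vegfa, -0.70 for Vegfb, -1.48 for Vegfc, -3.00 for Figf, 0.92 for Pgf, -1.92 for Flt1, -2.50 for Kdr, -0.98 for Flt4, -1.39 for Nrp1 and -0.34 for Nrp2. The exact permutation test over arrays gave its smallest possible p, 0.00794 (two-sided, n = 5 in each group), for the 9 members whose groups did not overlap. Groups that do not overlap always give that p, so it adds nothing to the count of 9.

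**Figure D1:**
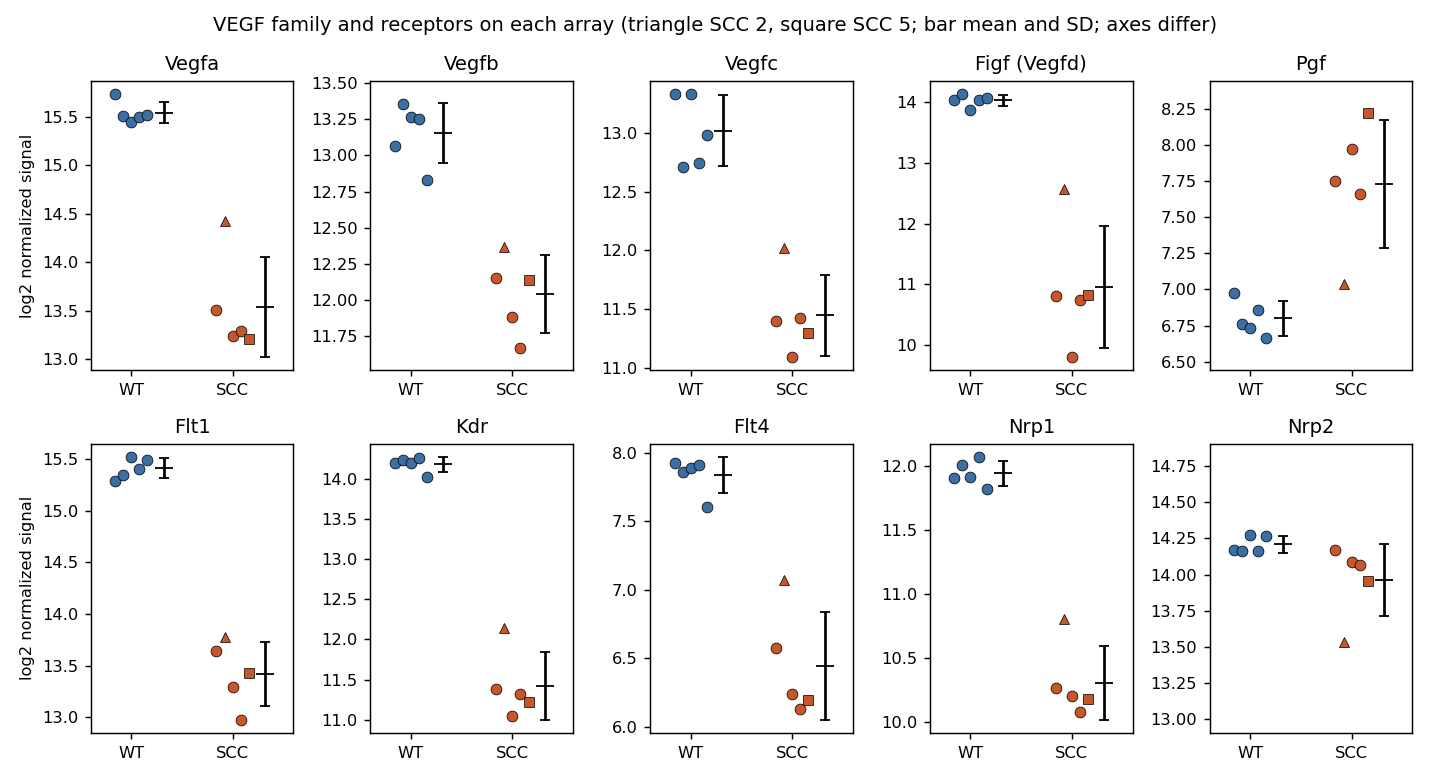
Log2 normalized signal of the brightest probe of each of the 10 genes on each array, with the mean and SD of each group (n = 5) at its right. Vertical scales differ between panels, so levels are not comparable between genes. WT and SCC points are apart in every panel except Nrp2, and the SCC 2 triangle lies nearest to the WT points in all 8 panels of genes called lower.

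Among the ligands, Vegfa fell by 2.01 on the log2 scale. Vegfa had log2 levels of 15.74, 15.51, 15.45, 15.51 and 15.52 on WT replicates 1 to 5 and of 13.51, 14.43, 13.24, 13.29 and 13.20 on SCC replicates 1 to 5. Every SCC value was below every WT value, and SCC replicate 2 lay closest to WT. The means were 15.54 ± 0.11 in WT and 13.53 ± 0.51 in SCC (SD, n = 5), a difference of -2.01 (SE 0.22, 95% interval -2.51 to -1.51, limma adjusted p = 8.08e-05), or 4.03-fold lower. The other 3 Vegfa probes also fell, by 1.55, 2.34 and 1.94. The probes were designed from 2 transcript accessions, and no splice form was measured on its own.

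Vegfc and Figf, the ligands of the lymphatic receptor, both fell. Log2 levels of Vegfc were 13.33, 12.71, 13.33, 12.75 and 12.98 on WT replicates 1 to 5 and 11.40, 12.02, 11.09, 11.43 and 11.29 on SCC replicates 1 to 5. No SCC value reached the WT range. The difference was -1.57 (SE 0.20, 95% interval -2.02 to -1.13, limma adjusted p = 0.000168), or 2.98-fold lower. On WT replicates 1 to 5 the log2 level of Figf was 14.03, 14.13, 13.88, 14.04 and 14.06, and on SCC replicates 1 to 5 it was 10.81, 12.57, 9.81, 10.75 and 10.82. Figf had the largest difference of the 10 genes and the widest spread among the SCC arrays, with SCC replicate 2 highest and SCC replicate 3 lowest. Its difference was -3.07 (SE 0.41, 95% interval -4.00 to -2.15, limma adjusted p = 0.000253), or 8.43-fold lower. Without SCC replicates 2 and 5 it was -3.57. With slide as a block it was -3.00 and no longer passed (limma adjusted p = 0.0539). Within each array, Figf minus Vegfc changed by -1.50 between WT and SCC, and its range was 0.54 to 1.42 in WT and -1.28 to 0.55 in SCC, so the ranges met only at SCC replicate 2. This comparison was made after the values were seen.

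Vegfb, a ligand of FLT1, had the smallest difference among the 8 called genes. Vegfb had log2 levels of 13.07, 13.35, 13.26, 13.25 and 12.83 on WT replicates 1 to 5 and of 12.15, 12.37, 11.88, 11.67 and 12.14 on SCC replicates 1 to 5. The groups did not overlap. The difference was -1.11 (SE 0.15, 95% interval -1.45 to -0.77, limma adjusted p = 0.000289), or 2.16-fold lower. The other Vegfb probe differed by -0.34 (limma adjusted p = 0.0107) and was not called, so the call rests on the brighter probe. Within slide 2 the difference was -0.70, and with slide as a block the gene no longer passed (limma adjusted p = 0.111).

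Pgf, the placental growth factor, was the member that was higher in SCC. Log2 levels of Pgf were 6.98, 6.76, 6.74, 6.86 and 6.67 on WT replicates 1 to 5 and 7.75, 7.04, 7.97, 7.66 and 8.22 on SCC replicates 1 to 5. All SCC values were above all WT values, and SCC replicate 2 was the lowest of them. The difference was 0.93 (SE 0.20, 95% interval 0.49 to 1.37, limma adjusted p = 0.00354), or 1.9-fold higher, which passed the adjusted p but not the 2-fold limit. Without SCC replicate 2 the difference was 1.10 and the gene was called, and so it was with scaling to the 75th percentile, where the difference was 1.06. With normexp it was 0.56, and without SCC replicate 5 it was 0.81. With slide as a block the adjusted p was 0.135.

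Both blood endothelial receptors fell. On WT replicates 1 to 5 the log2 level of Kdr was 14.20, 14.23, 14.20, 14.26 and 14.02, and on SCC replicates 1 to 5 it was 11.38, 12.14, 11.04, 11.32 and 11.22. The WT values lay within a narrow band and the highest SCC value, that of replicate 2, was far below it. The difference of Kdr was -2.76 (SE 0.19, 95% interval -3.18 to -2.34, limma adjusted p = 6.32e-06), or 6.77-fold lower. Flt1 had log2 levels of 15.29, 15.34, 15.52, 15.41 and 15.49 on WT replicates 1 to 5 and of 13.64, 13.78, 13.29, 12.98 and 13.43 on SCC replicates 1 to 5. Here the spread among SCC arrays was smaller than for Figf, and no array overlapped. The difference of Flt1 was -1.99 (SE 0.15, 95% interval -2.32 to -1.66, limma adjusted p = 9.81e-06), or 3.97-fold lower, and its other probe differed by -1.95. Kdr minus Flt1 on each array ranged from -1.47 to -1.09 in WT and from -2.26 to -1.64 in SCC. These ranges did not overlap, so Kdr was lower relative to Flt1 on every SCC array, a comparison likewise made after the values were seen.

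Flt4, the receptor of lymphatic endothelium, fell as well. Log2 levels of Flt4 were 7.93, 7.86, 7.89, 7.91 and 7.61 on WT replicates 1 to 5 and 6.58, 7.07, 6.24, 6.13 and 6.20 on SCC replicates 1 to 5. The groups did not overlap. The difference was -1.40 (SE 0.18, 95% interval -1.80 to -0.995, limma adjusted p = 0.000196), or 2.63-fold lower. Within slide 2 it was -0.98, where WT replicate 5 was the lowest WT array for this gene, and the fit with slide as a block no longer called it (limma adjusted p = 0.059). With normexp the difference was -0.80, below the 2-fold limit.

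Of the co-receptors, Nrp1 was called and Nrp2 was not. On WT replicates 1 to 5 the log2 level of Nrp1 was 11.91, 12.01, 11.91, 12.07 and 11.82, and on SCC replicates 1 to 5 it was 10.27, 10.81, 10.20, 10.08 and 10.18. All SCC values were lower. The difference of Nrp1 was -1.64 (SE 0.14, 95% interval -1.95 to -1.33, limma adjusted p = 1.98e-05), or 3.11-fold lower, and its other probe differed by -1.17. Nrp2 had log2 levels of 14.17, 14.16, 14.27, 14.17 and 14.27 on WT replicates 1 to 5 and of 14.17, 13.53, 14.09, 14.06 and 13.95 on SCC replicates 1 to 5. The ranges touched, since SCC replicate 1 lay within the WT range, and replicate 2 was the lowest. The difference of Nrp2 was -0.25 (SE 0.12, 95% interval -0.52 to 0.03, limma adjusted p = 0.122), and its exact two-sided permutation p over arrays was 0.0238 (n = 5 in each group). Nrp1 minus Nrp2 ranged from -2.45 to -2.10 in WT and from -3.98 to -2.73 in SCC.

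Across the SCC arrays, replicate 2 had the highest level of all 8 called members. Its median change from the WT mean over these genes was -1.13, against -1.72 on replicate 1, -2.02 on replicate 3, -2.06 on replicate 4 and -1.88 on replicate 5. The mean of 23 endothelial markers was also highest on replicate 2 among SCC arrays, at 12.26. Whether its lower squamous signal bears on the members was not tested.

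**Figure D2:**
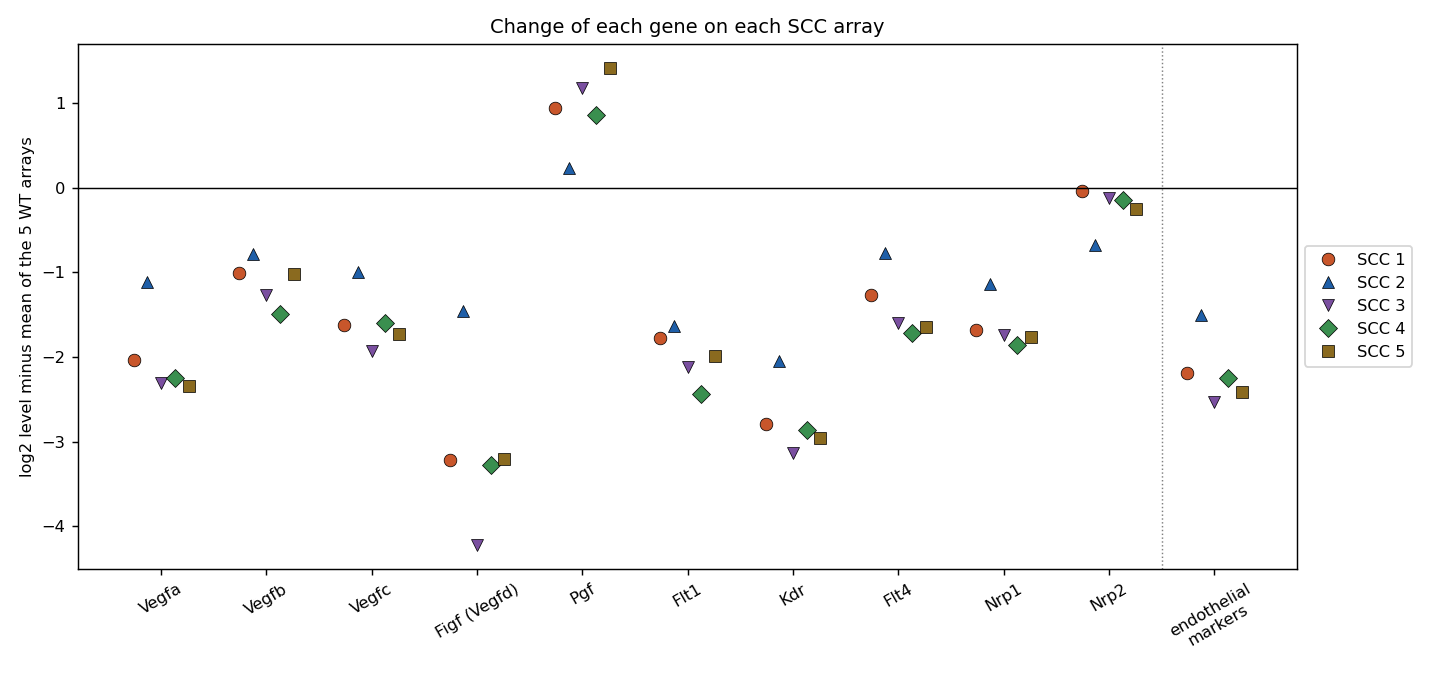
Log2 level of each gene on each SCC array minus the mean of the 5 WT arrays, with the mean of the 23 endothelial markers at the right. Each symbol is 1 SCC array. SCC 2 lies highest for the 8 genes called lower and lowest for Pgf and Nrp2.

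The receptors are expressed mainly by endothelium, so the endothelial markers were set beside them. Of 23 markers (Pecam1, Cdh5 and others), 22 fell and 1 was not called, with a median difference of -2.24. Their mean level ranged over 13.70 to 13.84 on the WT arrays and 11.23 to 12.26 on the SCC arrays, and each marker was well above background on at least 1 array of each group. Among the markers with the largest falls, Clec14a differed by -3.77, Tek, the angiopoietin receptor, by -2.89 and Ramp2, which partners the adrenomedullin receptor, by -2.85. The part of these cells in the family's differences was not tested.

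When the mean of the endothelial markers was subtracted on each array, the mean difference of -2.18 was removed from every gene. On this scale 87.4% of tested genes were called higher and 0.937% lower, so a call of higher is common. Of the 10 members, 3 were called higher (Pgf by 3.10, Nrp2 by 1.93 and Vegfb by 1.06) and 0 lower. Vegfb lay at the 2-fold limit and was not called with 75th percentile scaling, with array weights, without WT replicate 5 or without SCC replicate 5, nor with normexp, where its difference was 0.92 and Flt4 was called at 1.23. Vegfa and Flt1 did not pass the test, with differences of 0.17 (95% interval -0.13 to 0.47, limma adjusted p = 0.258) and 0.19 (95% interval -0.21 to 0.58, limma adjusted p = 0.326). Another Vegfa probe passed on this scale, at 0.62 (limma adjusted p = 0.00169), so the Vegfa probes disagree. The other Nrp1 probe was called higher, at 1.00 (limma adjusted p = 0.000136), and so was the other Vegfb probe, at 1.83 (limma adjusted p = 1.53e-05). Single markers differed by -3.77 to -0.84, so the test is against their mean alone. Kdr fell further than that mean, at -0.58 (95% interval -0.86 to -0.31, limma adjusted p = 0.00084), and Figf did too, at -0.90 (95% interval -1.50 to -0.30, limma adjusted p = 0.00817). Both were below the 2-fold limit. Vegfc, Flt4 and Nrp1 fell less than the mean of the markers, at 0.60 (95% interval 0.25 to 0.96, limma adjusted p = 0.00394), 0.78 (95% interval 0.47 to 1.09, limma adjusted p = 0.000243) and 0.54 (95% interval 0.22 to 0.86, limma adjusted p = 0.00397). Without SCC replicate 2, Figf was called lower relative to that mean, at -1.14. With slide as a block, Kdr, Figf, Vegfc and Nrp1 no longer passed on this scale.

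**Figure D3:**
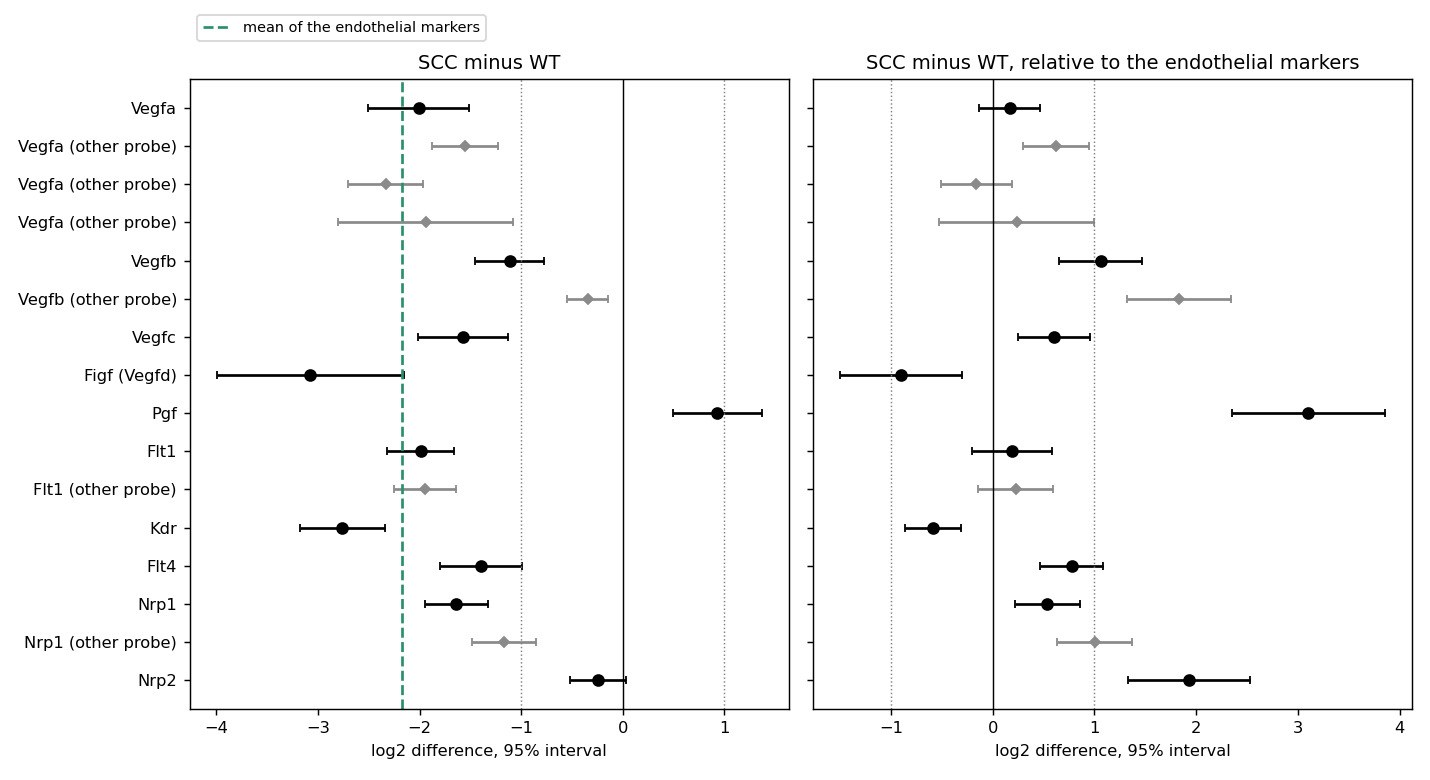
Difference between SCC and WT for all 16 probes with 95% intervals, as measured (left) and after subtracting the mean of the endothelial markers on each array (right). Black circles are the brightest probe of a gene, grey diamonds its other probes, and dotted lines mark 2-fold. On the left the dashed line is the mean difference of the endothelial markers, and the intervals of the brightest probes of Vegfa, Figf and Flt1 cross it, while that of Kdr lies to its left and those of the other 6 genes to its right.

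Vegfa is made by alveolar epithelium. Of 7 type 1 markers, 6 fell, with a median difference of -2.21. Clic5, a chloride channel protein, differed by -2.50 and Cav1, the caveolar coat protein that endothelium also expresses, by -2.47. The marker of the 7 that was not called was Aqp5, a water channel, at 0.64 (limma adjusted p = 0.0233), higher by less than 2-fold and named after its value was seen. Of 8 type 2 surfactant and secretory markers 0 were called, with a median of -0.63, and 2 were called lower without SCC replicate 2. Their mean level ranged over 15.36 to 15.51 on the WT arrays and 14.71 to 15.31 on the SCC arrays, and the type 1 mean over 14.67 to 14.95 on the WT arrays and 12.98 to 13.56 on the SCC arrays. Their part in the fall of Vegfa was not tested.

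Among genes of the response to low oxygen and other regulators of Vegfa, more rose than fell. Of 23 tested genes of this list, 9 rose, 1 fell and 13 were not called, with a median of 0.22. That median was 0.081 without SCC replicate 5, 0.0072 without SCC replicates 2 and 5 and 0.36 with 75th percentile scaling, while the counts stayed at 9 and 1. Egln3, a prolyl hydroxylase that marks hypoxia-inducible factors for degradation and is itself hypoxia-induced, rose by 5.58 (limma adjusted p = 5.64e-05). Slc2a1, the glucose transporter GLUT1, rose by 2.33 and Pgk1, a glycolytic kinase, by 1.70. Epas1, which encodes HIF-2α and is abundant in lung endothelium, fell by 1.49. Bnip3, Pdk1, P4ha1, Kdm3a and Mxi1 were among the genes not called and were named after their values were seen. In the slide block fit 4 rose and 1 fell, and Slc2a1 no longer passed (adjusted p = 0.132).

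Genes that act downstream of the receptors were described by a signalling list. Of its 39 tested genes 3 fell and 0 rose, with a median of -0.06, beside 13.4% lower, 11.6% higher and a median of -0.04 over all tested genes. The counts of the other lists stand beside the same shares. Those with slide as a block stand beside the 6.43% lower of that fit. The 3 that fell included Ptprb, an endothelial phosphatase that dampens TEK and KDR signalling, at -3.03, and Nfatc1, a calcium-regulated transcription factor, at -1.24. With slide as a block 3 of this list fell and 1 rose. Without SCC replicates 2 and 5, 6 fell and 3 rose. Without SCC replicate 2 alone, 5 fell and 2 rose. Of 20 genes induced by VEGF or typical of tip cells, 5 fell and 4 rose. Esm1, a secreted proteoglycan of tip cells, differed by -1.99, the Notch ligand Dll4 by -1.67 and the peptide Apln by -1.87. Igfbp3, which binds insulin-like growth factors, rose by 2.22, the potassium channel subunit Kcne3 by 2.10 and the protease Plau by 1.57. The median of that list was -0.13, but -0.04 without SCC replicate 2, -0.082 without SCC replicate 5, -0.016 with 75th percentile scaling and above 0, at 0.086, without both arrays. With slide as a block 4 fell and 3 rose, and Esm1 (limma adjusted p = 0.0699) and Plau (limma adjusted p = 0.146) no longer passed.

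Class 3 semaphorins, most of which bind neuropilins, and their plexin partners included more genes that fell than rose. Of 12 tested genes 6 fell and 1 rose, with a median of -1.28. Sema3e, which can bind a plexin directly, differed by -2.27, Sema3a by -2.26 and Sema3b by -1.94, while Plxna3 rose by 1.24. The slide block left 3 that fell and 0 that rose, and with normexp background correction 5 fell and 0 rose. Of 18 tested other vascular growth factors and receptors, 12 fell and 2 rose, with a median of -1.51. Eng, a TGF-beta co-receptor of endothelium, differed by -2.77 and Efnb2, the arterial ephrin, by -2.41. Thbs1, an inhibitor of vessel growth, rose by 1.26. In that slide fit 7 fell and 1 rose. Of 11 tested lymphatic genes 7 fell and 0 rose, with a median of -1.18. Ccbe1, which helps to activate VEGFC, differed by -3.03, Lyve1, the hyaluronan receptor, by -2.44 and Sox18 by -1.96. There were 4 that fell with slide as a block. The lists share genes, so their counts are not separate results. Sox18 is also among the endothelial markers and Pdpn among the type 1 markers. Tek, Tie1 and Eng of the vascular list and Robo4 of the tip cell list are endothelial markers too. Angpt2 and Pdgfb are in both the vascular and the tip cell list.

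**Figure D4:**
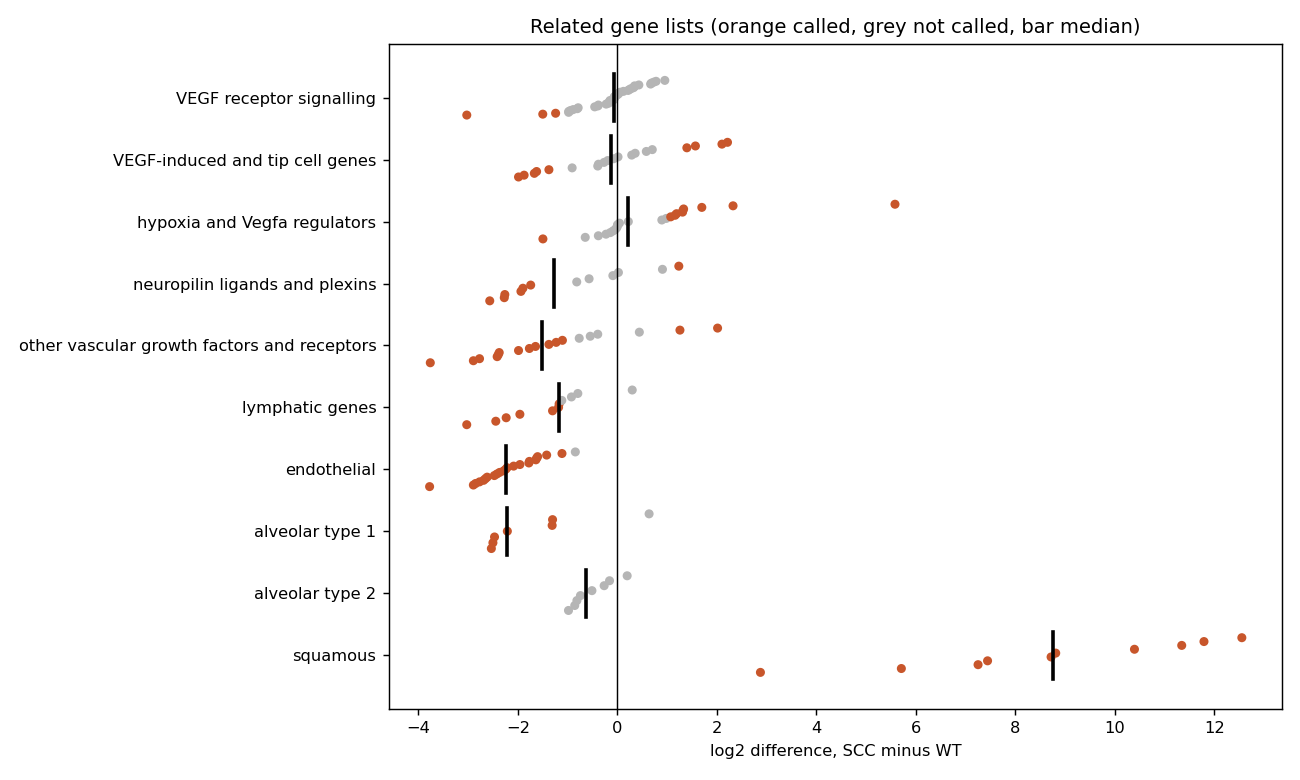
Difference between SCC and WT of each gene of the related lists, 1 point per gene, with called genes in orange and the median as a bar. Squamous markers lie far to the right and the endothelial markers to the left, while the signalling genes sit around 0.

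The gene outside the family whose levels followed each member most closely over the 10 arrays is given as a description, without a test, since the group difference alone raises any such correlation. For Kdr it was Pecam1, the adhesion molecule of endothelium, with Pearson's r = 0.999, among 14100 genes compared. For Vegfa it was Nox4, an oxidase, at 0.999. For Nrp1 it was Car4, the carbonic anhydrase of alveolar capillaries, at 0.998. For Flt1 it was Pxdc1, for Flt4 Bmi1, for Figf Bex2, for Vegfc Cdk14, for Vegfb Gmfg, for Pgf Tlcd1 and for Nrp2 Gadd45b, with r from 0.960 to 0.998.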

How the data were processed

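Whole-lung RNA of WT mice and RNA of whole SCC tumours were hybridised to single-colour Agilent arrays, with groups and replicate numbers taken from the sample titles. Per the file headers, the authors extracted the images with Feature Extraction 12.0.0.7, and the deposited scanner files hold a background-subtracted processed intensity per spot, raw and background intensity, and other flags. The authors also deposited a matrix of quantile-normalized log2 values, used only to choose the brightest probe and as an alternative. The methods name one-way ANOVA, in place of which limma 3.58.1 in R 4.3.3 was used.

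Control and outlier spots were left out, spots of a probe were averaged, and 41174 probes were quantile-normalized as log2 processed signal. The flag for signal well above background had to be set on a share of at least 0.5 of the spots of a probe, on 4 of the 5 arrays of either group, for the probe to be tested. The fit used lmFit and eBayes on all 10 arrays without covariates, two-sided, with Benjamini-Hochberg adjustment over 30374 probes. Members and lists were described by counts and medians. Probe accessions were matched to RefSeq symbols, which named 68.5% of probes. No probe was saturated, and 113 probes lacked a value on at least 1 array. The number of arrays limits the precision.

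The members and gene lists were chosen with earlier results of these data known. Genes named are the 10 members, up to 3 called genes with the largest positive and 3 with the largest negative difference in each list that were well above background on all 10 arrays, and for each member the most similar gene. Some genes that this rule selects are not reported here. The lists were VEGF receptor signalling, VEGF-induced and tip cell genes, and hypoxia and Vegfa regulators. The others were neuropilin ligands and plexins, other vascular factors, lymphatic genes and markers of 12 cell types. The promoters came from RefSeq, assembly GRCm38.p6. The alternatives were other scaling, background correction, filters, blocks, weights, tests and left-out arrays.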

Additional observations from a re-analysis of the deposited data

Results flagged for a closer look

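Gaps of 1 array from the other 4 of its group, as a share of the group's range, were examined in 68 groups of 5 arrays, of which 12 passed the 95% limit of 0.71. Chance passes it in about 1 of 20 independent groups. The 68 groups share the same 10 arrays and are not independent, so the 12 cannot be judged against that rate. Of the 12, 6 involved SCC replicate 2. It was highest of the SCC arrays for Vegfa, at 14.43 against 13.20 to 13.51 (gap 0.751), and for Nrp1, at 10.81 against 10.08 to 10.27 (gap 0.744). It was highest for the mean of the alveolar type 2 markers (gap 0.769). It was lowest for the mean of the squamous markers (gap 0.914), the macrophage markers (gap 0.868) and the neutrophil markers (gap 0.925).

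WT replicate 1 was highest of the WT arrays for Vegfa, at 15.74 against 15.45 to 15.52 (gap 0.746), for the next brightest Vegfa probe (gap 0.747) and for the alveolar type 2 mean (gap 0.724). WT replicate 5, the WT array that shares a slide with SCC arrays, was lowest for Kdr, at 14.02 against 14.20 to 14.26 (gap 0.741), and for Flt4, at 7.61 against 7.86 to 7.93 (gap 0.808). SCC replicate 3 was highest for the mean of the VEGF receptor signalling genes (gap 0.755).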

How the results depend on the processing

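The count of 8 members called, all lower, was 7 with normexp, where Flt4 fell short of 2-fold, and 8 with the deposited matrix, either filter, the random slide block, the replicate block, array weights, a t-test at either threshold and without SCC replicates 2 and 5 together. With 75th percentile scaling, with the adjusted p alone and without SCC replicate 2 it was 9, with Pgf added as higher. With slide as a fixed block 5 were called, since Vegfb (adjusted p = 0.111), Figf (adjusted p = 0.0539) and Flt4 (adjusted p = 0.059) no longer passed. That fit draws its difference from slide 2, with 1 WT and 3 SCC arrays, so it has fewer samples to draw on. Leaving out each array gave 8 to 9 members. Relative to the endothelial markers, 3 members were called, 2 with 75th percentile scaling, 8 with the adjusted p alone, 4 with the slide block and without both SCC replicates, and 2 to 4 leaving out each array. Array weights and normexp also gave 3, with Figf called lower and Flt4 called higher, respectively, in place of Vegfb. The 8 that passed by the adjusted p alone were 6 higher and 2 lower. Calls on this scale are common in each setting. Of all 15586 tested genes, 14527 passed by the adjusted p alone, 12599 were called with the slide block and 14075 without both SCC replicates. All tested probes called numbered 6954, 3969 with normexp, 2989 with the slide block and 14878 with the adjusted p alone, and 6385 to 8135 leaving out each array. The replicate block gave 6571 probes and 8 members. Same-numbered arrays had deviations correlated at -0.10 to 0.01, so the numbers do not pair the samples. No member's brightest probe reversed direction in any alternative. Scaling to the 75th percentile moved the median probe difference from -0.09 to 0.03, and called probes went from 3014 higher and 3940 lower to 3504 higher and 3080 lower. Among the other named genes, Tek, Cav1, Esm1, Plau, Sema3a, Sema3b, Plxna3, Cd8a, Cd68, Msr1, Cxcr2, Pdgfra, Tcf21 and Cnn1 also lost the adjusted p with the slide block, and Cnn1 did so with the replicate block (adjusted p = 0.126), without the filter and in the adjusted t-test too. The t-test, run in place of the one-way ANOVA that the methods name, called 5867 probes at unadjusted p below 0.01 and 6525 after adjustment. The list counts without single arrays and under other settings were chosen after seeing the data.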

Other observations

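Marker lists of other cells in the tissue moved as follows, with their part in the family's differences not tested. All 4 mesothelial markers fell, with a median of -5.30, and Msln differed by -2.56. Of 7 T and B cell markers 5 fell (median -1.55), with Ms4a1 at -2.78 and Cd8a at -2.48, and 3 fell with slide as a block. Of 6 neutrophil markers 5 rose (median 1.78), with Cxcr2 at 1.94, and 3 without SCC replicate 5. Their median was 1.97 with slide as a block, where 0 were called. Of 6 macrophage markers 2 rose (median 0.70), Msr1 by 3.91 and Cd68 by 1.95, while Marco, at -0.75, and Csf1r, at -0.50, were lower by less than 2-fold and passed the adjusted p. The slide block gave a median of 0.91 and 0 calls.

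Of 7 fibroblast markers 4 fell (median -1.32), with Tcf21 at -3.34 and Pdgfra at -2.10, while Col1a1, at 0.66, and Col3a1, at 0.53, were higher by less than 2-fold and passed the adjusted p. Marco, Csf1r, Col1a1 and Col3a1 were named after their values were seen. The fibroblast median with slide as a block was -1.47 and 0 were called. Of 7 pericyte and smooth muscle markers 2 fell, Myh11 by 1.18 and Cnn1 by 1.23 (limma adjusted p = 0.0493), but Cnn1 lost its call in 7 of the 10 fits that left out 1 array, namely WT replicates 1, 2, 3 and 5 and SCC replicates 1, 3 and 5, and without SCC replicates 2 and 5 together. Of 6 club and ciliated markers 3 fell (median -1.19), 1 without SCC replicate 5 and 0 with slide as a block, where the median was -1.65. Of 7 cardiac muscle markers 6 fell (median -2.27), 0 with slide as a block (median -2.77), and their mean level spread widely among the WT arrays, from 9.85 to 13.38.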
